A study of Homo sapiens with 6 samples.

Results

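The genes described here are TNFAIP6 and PTX3 together with genes whose products work with theirs in the hyaluronan-rich matrix around cells. They are the 5 inter-alpha-inhibitor heavy chain genes ITIH1 to ITIH5, AMBP, which encodes the light chain bikunin, the hyaluronan synthase gene HAS2 and the hyaluronan receptor gene CD44. TNFAIP6 and PTX3 were selected on their rise in FPKM in this same comparison, so their difference is given as a description with no test, and the other 8 genes were added by role. All 10 gene names were found, each on 1 of the 58037 gene rows, and 7 of the 10 passed the expression minimum for testing. The cells were HepaRG, a human line from a hepatocellular carcinoma that differentiates in culture into hepatocyte-like and biliary-like cells. They were used at passages 15 to 18, grown for 14 days, differentiated for 14 days, and held for 5 days in a basal medium that contained insulin and hydrocortisone hemisuccinate, so both groups had met this glucocorticoid. For 72 h, 3 control samples then received medium with bovine serum albumin at 0.02%, and 3 fatty acid samples received 0.5 mM palmitate and oleate (1 part to 2 parts) bound to albumin at 0.02%. Separate cultures are not named for the replicates in the labels, and the spread behind each p-value may therefore be only technical.

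Hyaluronan is a long sugar polymer that is spun out at the cell surface by hyaluronan synthases and held there by receptors such as CD44. Hepatocytes are the main source of inter-alpha-inhibitor, a plasma protein in which heavy chains are tied to bikunin through a chondroitin sulfate chain. TNFAIP6 encodes TSG-6, a secreted protein made in inflammation that moves the heavy chains from bikunin onto hyaluronan, and PTX3 encodes a long pentraxin that binds such chains and helps to cross-link the matrix, best known around the ovulated egg. Bikunin, a Kunitz-type protease inhibitor, is made from the AMBP precursor together with alpha-1-microglobulin.

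The bases in front of TNFAIP6 and PTX3, both chosen for their rise, are shown from RefSeq (GRCh38.p14, plus strand, 5′ to 3′). RefSeq windows were at hand for 8 of the 10 genes, with none for HAS2 and ITIH2. The TNFAIP6 stretch is chr2:151357342-151357591, the 250 bases before its start. The PTX3 stretch is chr3:157436600-157436788, 189 bases, and stops where the gene begins in the deposited table, 61 bases before the RefSeq start. Capitals mark matches to the motifs that were searched.
TNFAIP6: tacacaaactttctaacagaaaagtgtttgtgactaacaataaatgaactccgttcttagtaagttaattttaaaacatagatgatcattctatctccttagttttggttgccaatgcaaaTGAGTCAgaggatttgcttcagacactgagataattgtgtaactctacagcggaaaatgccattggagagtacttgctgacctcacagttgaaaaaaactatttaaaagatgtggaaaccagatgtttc
PTX3: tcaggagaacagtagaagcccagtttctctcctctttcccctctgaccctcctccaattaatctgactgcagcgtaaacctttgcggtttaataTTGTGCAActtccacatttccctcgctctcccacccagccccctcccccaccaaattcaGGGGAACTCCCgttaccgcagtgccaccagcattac
The search covered, on both strands of the 250 bases before each RefSeq start, the AP-1 motif TGANTCA, the C/EBP motif TTNNGCAA, the kappa-B motif, the HNF4 motif CAAAGTCCA, the HNF1 motif and the TATA box TATAAA. TNFAIP6 held 1 AP-1 match, from -129 to -123 counted from the RefSeq start, and such a match occurred in 6.57% of all 35116 promoter windows. PTX3 held 1 C/EBP match, from -156 to -149 (9.05% of windows), and overlapping kappa-B matches from -97 to -87 (9.96% of windows). Among the other 6 genes with a window, ITIH1 held kappa-B matches and none held any other match. The windows of ITIH1, ITIH4 and CD44 lay wholly inside these genes as the deposited table gives them. ITIH1 had more than 1 window, so the share per window does not carry over to it. The shares were 0.325% for HNF4, 0.296% for HNF1 and 10.7% for the TATA box. These matches describe letters only, and no binding was measured.

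Levels are FPKM, which count the reads of a gene per kilobase of its length and in proportion to the reads assigned to all genes, and can therefore be compared between genes. Depth ran from 6.33 to 11.82 M reads in the control libraries and from 8.36 to 15.94 M in the fatty acid libraries. The fatty acid libraries also had a smaller share of mitochondrially encoded reads, 9.15 to 11.9% against 12.2 to 15%. Hepatocyte markers were abundant, with 12 genes that summed to between 17100 and 17900 FPKM in controls and between 13600 and 14100 FPKM with fatty acid. ALB was the largest part of this sum, with means of 12000 and 7130 FPKM, and it fell by more than the sum did. Of the 12 markers, 8 fell and 3 rose (SERPINA1, HP and FGB), where limma called 4.68% of all tested genes lower and 8.22% higher. The markers that rose numbered 1 without fatty acid replicate 1, without fatty acid replicate 2 and with no filter, and those that fell numbered 7 with no filter and 8 under the other 14 alternatives. The 11 mesenchymal markers summed to between 102 and 111 FPKM in controls and between 118 and 126 FPKM with fatty acid. Of their 7 tested genes LUM rose, the other 6 did not pass and the median log2 difference was -0.11, while THY1 was at 0 in every library, COL1A2 had 1 read in all and VIM had 9 reads in each group. Mesenchymal markers called higher numbered 0 in limma without fatty acid replicate 1, where 2 had an unadjusted p under 0.05, and 2 with a minimum of 2 FPKM, with TPM and with voom. Those called lower numbered 1 with a minimum of 2 FPKM, 1 without fatty acid replicate 3 and 2 with voom. The 8 biliary markers summed to 366 to 439 FPKM in controls and 364 to 378 FPKM with fatty acid, with EPCAM at 0 throughout. The 11 immune and endothelial markers summed to 49.9 to 54.8 FPKM and 38.2 to 39.9 FPKM, most of it KDR, which fell, and CD3E, MS4A1 and CDH5 were at 0 in every library. The part that these markers play in the results was not tested, and in bulk RNA fewer cells of a type cannot be told apart from less RNA per cell.

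In control cells the levels of the 10 genes ran from a few reads per library to one of the most abundant mRNAs. AMBP had the highest mean, 663 FPKM, rank 36 of all gene rows, followed by ITIH2 with 92.2 FPKM. CD44 and ITIH1 came next with 19.2 and 16.8 FPKM, and their ranges over the control libraries overlapped. PTX3 had 3.03 FPKM. ITIH4 and TNFAIP6, with 1.15 and 0.726 FPKM, also overlapped in range, and ITIH3 lay lower with 0.448 FPKM. HAS2 and ITIH5 were last with 0.027 and 0.026 FPKM, in overlapping ranges. With fatty acid no neighbouring pair in the order overlapped. The first 5 kept their places, TNFAIP6 stood above ITIH4, and ITIH5 above HAS2. The place of ITIH4 is uncertain, since another row on the same strand overlaps it.

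**Figure D1:**
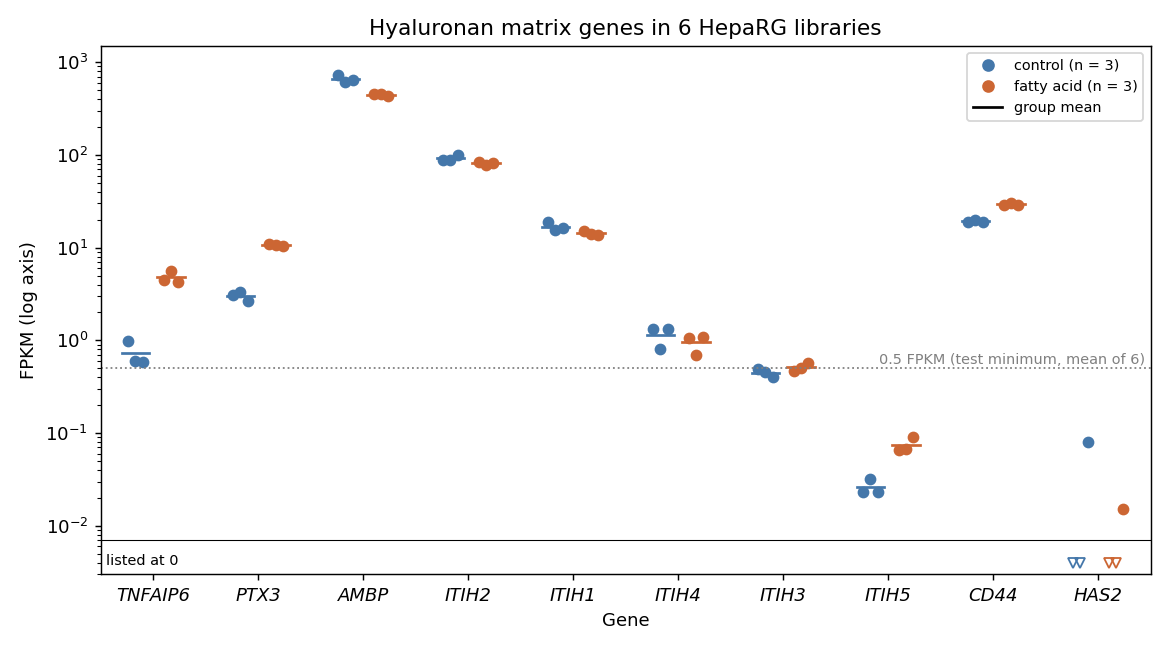
FPKM of the 10 genes (log axis) in each of the 3 control and 3 fatty acid libraries, with points for libraries, bars for group means (not drawn for HAS2) and open triangles for values of 0. The fatty acid points of TNFAIP6, PTX3 and CD44 lie above all control points and those of AMBP below them, with AMBP at 663 and 445 FPKM on average and TNFAIP6 at 0.726 and 4.8 FPKM.

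TNFAIP6 (ENSG00000123610.4, chromosome 2, 151357592 to 151380048, plus strand, GRCh38), whose product transfers the heavy chains, was low in controls and higher in each fatty acid library. Its levels were 0.989, 0.6 and 0.589 FPKM in control replicates 1, 2 and 3, and 4.467, 5.644 and 4.291 FPKM in fatty acid replicates 1, 2 and 3. Control replicate 1 was the highest of its group and fatty acid replicate 2 of the other, and the lowest fatty acid library was above the highest control. These values rest on 14, 6 and 11 reads in the controls and 59, 128 and 108 reads with fatty acid. Mean FPKM was 6.61-fold higher with fatty acid. The depth-adjusted ratio of the summed reads was 6.67 with a 95% exact binomial interval of 4.6 to 10.0. This interval covers counting error only and takes no account of the choice of the gene for its rise, so it is no test. On the log2(FPKM + 0.5) scale, which understates the change of low genes, the difference was 2.12 ± 0.16 (SE), the third highest of 14661 tested genes, and this is the value by which the gene was chosen. It was 1.75 with a pseudocount of 1 and 2.71 with voom on reads. Genes annotated over the same bases, RN7SL124P and small RNA genes, had 1 read in all.

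PTX3 (ENSG00000163661.3, chromosome 3, 157436789 to 157443628, plus strand), the long pentraxin that organises the matrix, showed the same direction with little spread between fatty acid libraries. Its levels were 3.105, 3.338 and 2.66 FPKM in control replicates 1, 2 and 3, and 10.846, 10.623 and 10.444 FPKM in fatty acid replicates 1, 2 and 3. Control replicate 3 was the lowest library, and the groups did not overlap. Mean FPKM was 3.5-fold higher with fatty acid, and the log2 difference was 1.66 ± 0.09 (SE), rank 10 among the tested genes and again the value behind its choice. PTX3 lies within VEPH1 on the opposite strand, whose levels were 1.498 to 2.145 FPKM in controls and 1.508 to 1.605 FPKM with fatty acid. The sources used here do not give the strand setting of the counting, so reads of the 2 genes may not be separated. PTX3 had more FPKM than TNFAIP6 in every library, 4.41 ± 1.22 (SD, n = 3) times as much in controls and 2.25 ± 0.317 times with fatty acid.

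Profiles over the 6 libraries were compared by Pearson's r of log2(FPKM + 0.5), among 11431 genes averaging 1 FPKM or more. Pseudogenes and genes named only by a clone or an identifier were left out of these. The libraries form 2 groups, so r mostly reflects the gap between them and carries no p. The 5 genes most like TNFAIP6 were GDE1, PTGFRN, CCNI, DNAJC3 and SET, with r from 0.997 to 0.9983, and all had smaller differences than TNFAIP6, from 0.25 for SET to 0.49 for DNAJC3 on the log2 scale. The 5 most like PTX3 were ADAMTS9, SAA2, TPM4, SDCBP and PLIN2, with r from 0.998 to 0.9985. Of these, ADAMTS9 and PLIN2 had log2 differences of 1.33 and 1.43, closest to that of PTX3. The r between PTX3 and TNFAIP6 was 0.9833, rank 95 in the list for TNFAIP6 and 136 in that for PTX3.

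Of the 7 tested members, 6 had groups that did not overlap, TNFAIP6, PTX3 and CD44 higher and AMBP, ITIH1 and ITIH2 lower. Over all genes tested 37.1% had such groups, 23.7% higher and 13.3% lower, and for TNFAIP6 and PTX3 nothing is read from this, since they were selected on it. CD44 rose and AMBP fell, whereas the tested heavy chain genes did not pass the threshold. Of the 5 partner genes tested, 1 was called higher and 1 lower. Over all genes tested the share called was 8.22% higher and 4.68% lower with limma (adjusted p under 0.05, Benjamini-Hochberg). The median log2 difference of all genes was 0.04. Rescaling each library to TPM raised that median to 0.18 and gave 86.5% of calls higher in place of 63.7%, and median-of-ratios scaling gave 48.8%. The partner genes kept their directions under both scalings.

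CD44 (ENSG00000026508.16, chromosome 11, 35138870 to 35232402, plus strand), the main cell surface receptor for hyaluronan, was higher in all fatty acid libraries. Its levels were 18.944, 19.898 and 18.715 FPKM in control replicates 1, 2 and 3, and 28.934, 30.572 and 28.898 FPKM in fatty acid replicates 1, 2 and 3. The gap between the groups was far wider than the spread within either. The means were 19.2 ± 0.627 and 29.5 ± 0.956 FPKM (SD, n = 3), 1.54-fold higher, and the log2 difference was 0.61 ± 0.05 (SE, limma adjusted p = 0.000689), with a range of 0.57 to 0.75 over 15 alternatives. It ranked 273 from the top of the tested genes. The value sums all CD44 transcripts, whose splice forms the gene table does not separate.

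AMBP (ENSG00000106927.11, chromosome 9, 114060127 to 114078472, minus strand), the precursor of bikunin and alpha-1-microglobulin, was lower in all fatty acid libraries. Its levels were 732.946, 619.703 and 636.866 FPKM in control replicates 1, 2 and 3, and 449.271, 449.234 and 436.897 FPKM in fatty acid replicates 1, 2 and 3. Control replicate 1 was the highest, the fatty acid libraries lay close together, and the groups did not overlap. The means were 663 ± 61 and 445 ± 7.13 FPKM (SD, n = 3), 1.49-fold lower with fatty acid, and the log2 difference was -0.57 ± 0.07 (SE, limma adjusted p = 0.00362). Over 15 alternatives it ran from -0.62 to -0.43 with an adjusted p of at most 0.0277. ALB, the albumin gene and a hepatocyte marker, fell from 12000 ± 318 to 7130 ± 306 FPKM (SD, n = 3, limma adjusted p = 0.000882). Per FPKM of ALB, AMBP was 0.0553 ± 0.00646 in controls and 0.0625 ± 0.00288 with fatty acid, in overlapping groups (exact permutation p = 0.3, two-sided, where 3 against 3 cannot go below 0.1). ALB was 1 of the 8 hepatocyte markers that fell, while 3 rose. These were SERPINA1 (2210 to 2670 FPKM), HP (1190 to 1560 FPKM) and FGB (1180 to 1940 FPKM). The ratio therefore depends on the marker chosen, and none to another marker was taken.

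**Figure D2:**
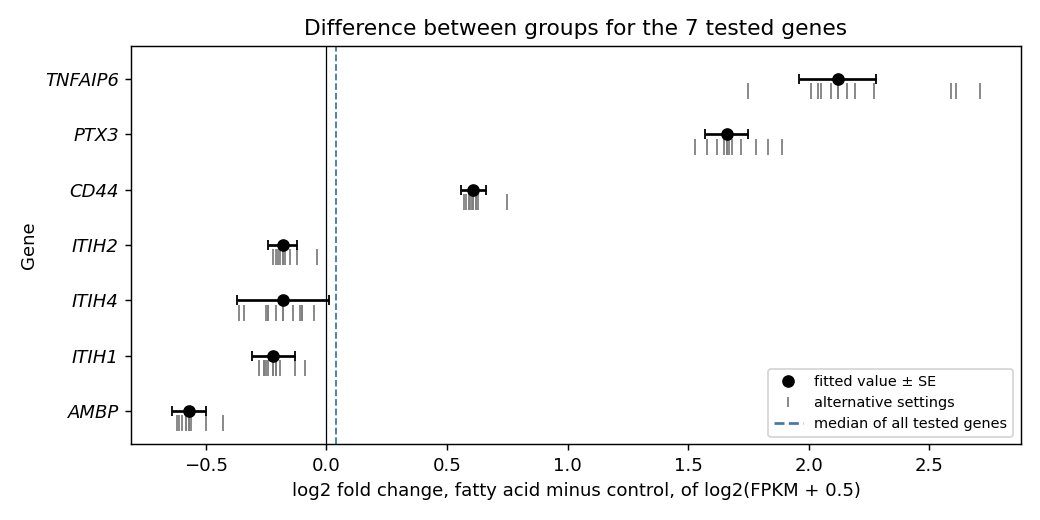
log2 difference (fatty acid minus control) of the 7 tested genes, with points and bars for the fitted value ± SE of log2(FPKM + 0.5), grey ticks for the alternative settings (voom on its own log2 scale) and a dashed line at the median of all tested genes, 0.04. TNFAIP6, PTX3 and CD44 lie above 0 and AMBP below it under every setting drawn, while the SE bar of ITIH4 reaches 0.

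In the listed FPKM the heavy chain genes were dominated by ITIH2, and their tested members had lower means with fatty acid without passing the threshold. ITIH2 (ENSG00000151655.18, chromosome 10, 7703269 to 7749520, plus strand) encodes heavy chain 2. It had 88.794, 88.23 and 99.467 FPKM in control replicates 1, 2 and 3, and 83.063, 78.838 and 82.433 FPKM in fatty acid replicates 1, 2 and 3. Control replicate 3 was the highest library and the groups did not overlap. The log2 difference was -0.18 ± 0.06 (SE, limma adjusted p = 0.0987). Under voom on the recovered reads it passed, with an adjusted p of 0.0434, and after rescaling to TPM the difference was -0.04.

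ITIH1 (ENSG00000055957.10, chromosome 3, 52777592 to 52792068, plus strand) encodes heavy chain 1. It had 19.049, 15.329 and 16.14 FPKM in control replicates 1, 2 and 3, and 15.207, 14.066 and 13.764 FPKM in fatty acid replicates 1, 2 and 3. The lowest control and the highest fatty acid library nearly met. The log2 difference was -0.22 ± 0.09 (SE, limma adjusted p = 0.143), and without control replicate 1 it was -0.13.

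ITIH3 and ITIH4 follow ITIH1 on chromosome 3, with gaps of 2.7 kb and 3.96 kb between the genes, yet their listed levels were far lower. ITIH3 (ENSG00000162267.12, 52794768 to 52809009, plus strand) had 0.49, 0.453 and 0.4 FPKM in control replicates 1, 2 and 3, and 0.464, 0.506 and 0.572 FPKM in fatty acid replicates 1, 2 and 3. The groups overlapped, and with a mean under 0.5 FPKM the gene was not tested. ITIH4 (ENSG00000055955.15, 52812975 to 52831479, minus strand) encodes an acute-phase relative that does not join bikunin. It had 1.327, 0.81 and 1.316 FPKM in control replicates 1, 2 and 3, and 1.073, 0.701 and 1.08 FPKM in fatty acid replicates 1, 2 and 3. Replicate 2 was the lowest in each group and the groups overlapped. The log2 difference was -0.18 ± 0.19 (SE, limma adjusted p = 0.555, 95% interval -0.62 to 0.26). It was -0.34 without control replicate 2, -0.1 without control replicate 1 or 3 and -0.05 without fatty acid replicate 2. The depth-adjusted ratio of its summed reads was 0.78 (95% exact binomial interval 0.634 to 0.961, counting error only). RP5-966M1.6, a protein-coding row on the same strand (52813282 to 52835729), covers most of ITIH4. It had 465 reads in controls and 338 with fatty acid, or 2.176 to 3.073 FPKM and 0.871 to 1.728 FPKM. The division of reads between these rows is uncertain, so the level of ITIH4 is uncertain too and may be understated.

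ITIH5 (ENSG00000123243.14, chromosome 10, 7559270 to 7666998, minus strand), a more distant heavy chain relative that lies 36.3 kb from ITIH2, was close to the limit of detection. It had 3, 3 and 4 reads in control replicates 1, 2 and 3, and 8, 14 and 21 reads in fatty acid replicates 1, 2 and 3. Its levels were at most 0.032 FPKM in controls and at least 0.065 FPKM with fatty acid, so the groups did not overlap. The depth-adjusted ratio was 3.02 (95% exact binomial interval 1.49 to 6.73, counting error only), and the gene was below the minimum for testing. The means of ITIH5 and ITIH3 were higher with fatty acid, and neither gene was tested. For ITIH3 they were 0.448 FPKM in controls and 0.514 FPKM with fatty acid, in overlapping groups. The means of ITIH1, ITIH2 and ITIH4 were lower without passing the threshold, and AMBP was called lower.

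The 5 heavy chain genes summed to 111 ± 6.3 FPKM in controls and 97.3 ± 2.9 FPKM with fatty acid (SD, n = 3), a sum that depends on the scaling. Ratios within a library do not depend on its scaling. AMBP stood at 6.68, 5.91 and 5.43 FPKM per summed heavy chain FPKM in control replicates 1, 2 and 3, and at 4.5, 4.77 and 4.46 in fatty acid replicates 1, 2 and 3. The ratio was lower in every fatty acid library (exact permutation p = 0.1, two-sided, the smallest that 3 against 3 allows). ITIH2 held 83.3 ± 2.04% of the heavy chain FPKM in controls and 83.7 ± 0.5% with fatty acid, and ITIH1 15.2 ± 1.89% and 14.7 ± 0.611% (SD, n = 3), each with overlapping groups. The heavy chain sum and all values taken from it use the uncertain ITIH4 level as listed. Summed heavy chain FPKM per FPKM of TNFAIP6 went from 162 ± 45.6 to 20.6 ± 3.42, a ratio that carries the rise by which TNFAIP6 was chosen.

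**Figure D3:**
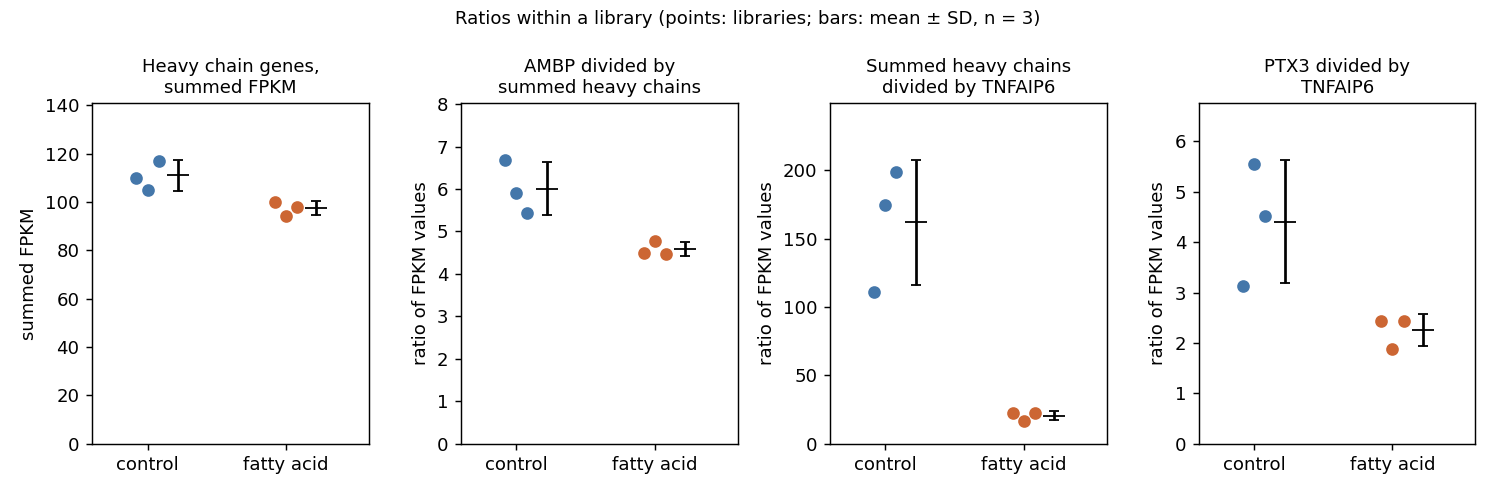
Summed FPKM of the 5 heavy chain genes and 3 ratios of FPKM values, by group, with a point per library and a bar for the mean ± SD (n = 3). Unlike the ratios, the sum depends on the scaling of the libraries. AMBP per heavy chain FPKM lies between 5.43 and 6.68 in controls and between 4.46 and 4.77 with fatty acid, and heavy chain FPKM per TNFAIP6 FPKM averages 162 and 20.6.

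HAS2 (ENSG00000170961.6, chromosome 8, 121612116 to 121641390, minus strand), the synthase most often tied to inducible hyaluronan coats, was nearly undetected. It had 0, 0 and 4 reads in control replicates 1, 2 and 3, and 0, 0 and 1 reads in fatty acid replicates 1, 2 and 3. The depth-adjusted ratio, 0.175, had an exact binomial interval of 0.00356 to 1.77, so no difference was detectable at this depth. HAS2-AS1, on the opposite strand over part of the gene, had 3 and 1 reads. Of the other synthases, HAS1 had 1 read in all, and HAS3 had 0.722 ± 0.379 and 0.504 ± 0.033 FPKM (SD, n = 3, log2 difference -0.24 ± 0.24, limma adjusted p = 0.532).

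Genes that feed, cut or bind hyaluronan were counted from a list of 20, of which 13 were tested. Of these, 7 rose and 1 fell, where 8.22% of all tested genes were called higher and 4.68% lower, and the median log2 difference was 0.2 against 0.04 for all genes. This list and those that follow were drawn up with earlier results of these data known, so their counts are only descriptions. TMEM2, which encodes a cell surface hyaluronidase, rose from 16.5 ± 0.293 to 22 ± 1.63 FPKM (SD, n = 3, limma adjusted p = 0.0107), while CEMIP, which encodes another hyaluronan-degrading protein, fell from 4.72 ± 0.0722 to 3.01 ± 0.348 FPKM (0.00923). Of the enzymes that make the precursor UDP-N-acetylglucosamine, GFPT1, the rate-limiting enzyme of that route, rose from 10.8 ± 0.964 to 14.7 ± 0.704 FPKM (limma adjusted p = 0.0151) and GNPNAT1 from 11.2 ± 0.376 to 14.2 ± 0.269 FPKM (0.0116). The other risers were HMMR, a hyaluronan-binding protein also active in mitosis, UGDH and UGP2, which lead to the precursor UDP-glucuronic acid, and PGM3, with adjusted p from 0.0204 to 0.0481. The rising genes numbered 0 in limma without fatty acid replicate 1 or 2, although 7 had an unadjusted p under 0.05 in each case, and voom on all libraries called 7. In those fits TMEM2 had an adjusted p of 0.0624 and 0.0556, GFPT1 of 0.0731 and 0.0747 and GNPNAT1 of 0.063 and 0.0669. They numbered 4 when fatty acid replicate 3 was left out, when genes were not filtered and when the trend was dropped, whereas CEMIP was called under all 15 alternatives. Of the 14 proteoglycans, link proteins and versican proteases, 6 were tested and 1 was called higher (8.22% of all genes). ADAMTS9, a protease that cuts versican, rose from 6.24 ± 0.651 to 16.4 ± 0.866 FPKM (limma adjusted p = 0.000189). Versican itself, VCAN, which binds hyaluronan, had 3.41 ± 0.188 and 4.31 ± 0.484 FPKM (adjusted p = 0.0847).

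Among 8 other heavy chain, Kunitz inhibitor and bikunin-processing genes, 5 were tested and 1 passed, where 8.22% of all genes were called higher. It was TFPI, the tissue factor pathway inhibitor with Kunitz domains like those of bikunin. It rose from 27.7 ± 2.37 to 33.8 ± 0.840 FPKM (SD, n = 3, limma adjusted p = 0.0366). Its call was lost with median-of-ratios scaling (0.0733), no filter (0.0764) and no trend (0.0804), on leaving out control replicate 3 (0.0874), and on leaving out any fatty acid replicate (0.138, 0.134 and 0.0774 for replicates 1, 2 and 3). ITIH6, the remaining heavy chain gene, had 0 reads in every library.

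Of 18 pentraxins and PTX3 binding partners, 6 were tested and 2 rose, where 8.22% of all genes were called higher. The median log2 difference of the 6 was 0.07 against 0.04 for all genes. CRP, the short pentraxin of the acute phase, rose from 90.2 ± 10.8 to 201 ± 14.1 FPKM (SD, n = 3, limma adjusted p = 0.000476), and NPTX2, a long pentraxin, from 40.6 ± 4.04 to 51.3 ± 0.782 FPKM (0.0287). APCS, the other short pentraxin, had 160 ± 7.18 and 150 ± 3.65 FPKM (0.271). NPTX2 lost its call with no filter (0.0679), with no trend (0.0673), on leaving out control replicate 2 (0.0539) and on leaving out any fatty acid replicate (0.105, 0.101 and 0.0827 for replicates 1, 2 and 3).

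A list of 21 genes held cytokines that induce TNFAIP6 and PTX3 together with receptors, signalling genes and feedback inhibitors of those routes. Of these, 16 were tested and 7 rose, where 8.22% of all genes were called higher, and the median log2 difference was 0.23 against 0.04 for all genes. The list was drawn up with earlier results of these data known, so its count is only a description. TNFAIP3, a feedback inhibitor of NF-kappa-B, rose from 7.80 ± 0.214 to 15.1 ± 0.718 FPKM (SD, n = 3, limma adjusted p = 0.000229) and the interleukin-1 receptor gene IL1R1 from 19.5 ± 0.911 to 26.0 ± 1.16 FPKM (0.00754). The TNF receptor gene TNFRSF1B rose from 1.51 ± 0.166 to 2.64 ± 0.181 FPKM (limma adjusted p = 0.0105), and IL6 from 1.37 ± 0.523 to 3.38 ± 0.680 FPKM (0.0217). The other risers were the receptor genes TLR2 and TLR4 and NFKBIA, which encodes another inhibitor of NF-kappa-B. TNF and IL1A had 0 reads in every library, and IL1B, below the minimum for testing, had 9 reads in controls and 58 with fatty acid. On leaving out fatty acid replicates 1, 2 and 3 in turn the rising genes numbered 2, 3 and 3, on leaving out control replicate 3 they numbered 3, and with no filter 4. In these limma fits, in the same order, 7, 8, 9, 9 and 9 genes were higher with an unadjusted p under 0.05. With the filter and all libraries 9 were. IL6 lost its call on leaving out any fatty acid replicate (0.0901, 0.0705 and 0.0521 for replicates 1, 2 and 3) or control replicate 3 (0.0593) and with no filter (0.0689). TNFRSF1B lost its call on leaving out fatty acid replicate 1 (0.0615).

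**Figure D4:**
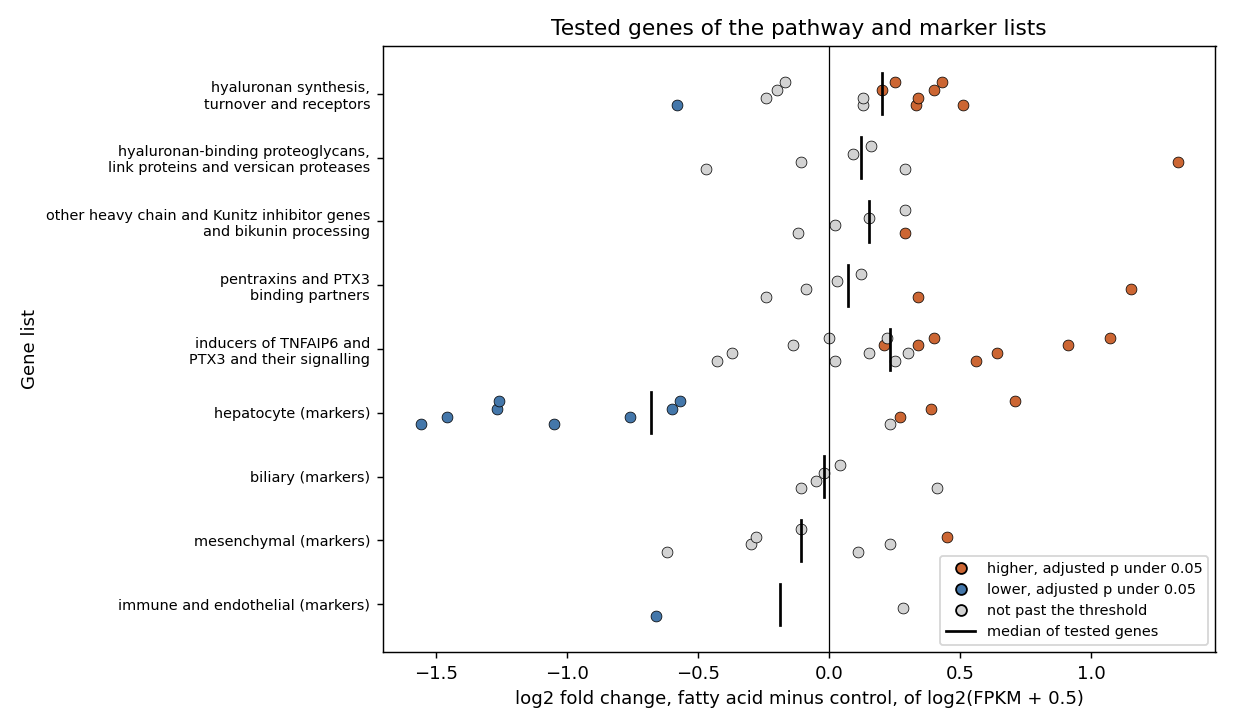
log2 difference (fatty acid minus control, of log2(FPKM + 0.5)) of each tested gene in the 5 pathway lists and 4 marker lists, coloured by whether the limma adjusted p was under 0.05, with a bar at each list's median. ADAMTS9 and CRP stand out in their lists at 1.33 and 1.15, and the hepatocyte markers split into 8 that fell and 3 that rose.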

How the data were processed

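The authors deposited FPKM values with 3 decimals for 6 libraries, prepared from 100 ng of RNA with a stranded mRNA kit, per the labels. STAR 2.5.2, Subread 1.5.1 with featureCounts and the build GRCh38 are listed in the submitters' processing notes, and the strand setting and annotation release are not given in the sources used here. FPKM times length came out as whole multiples of 1 step per library for at least 99.9867% of the values with enough decimals (tolerance 0.02 reads beyond rounding), which gave the reads and depths.

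Groups and replicate numbers come from the sample titles. Fatty acid was compared with control, without covariates, by limma 3.58.1 in R 4.3.3 (intensity trend) on log2(FPKM + 0.5) for the 14661 genes averaging 0.5 FPKM or more, with Benjamini-Hochberg adjustment over all of them and a threshold of 0.05. The fit was tested on simulated data. An adjusted p in brackets after a gene is from limma. Genes and lists were chosen with earlier results of these data known. Named genes are the 10 members, up to 4 called genes per pathway list with the smallest adjusted p, and the 5 genes most like TNFAIP6 and PTX3. Others (HAS1, HAS3, HMMR, UGDH, UGP2, PGM3, VCAN, ITIH6, APCS, TLR2, TLR4, NFKBIA, TNF, IL1A, IL1B, LUM, KDR, ALB, SERPINA1, HP, FGB, the markers at or near 0 and the overlapping genes) were named after their values were seen. Python 3.11.15, numpy 2.4.6, scipy 1.17.1 and matplotlib 3.10.9 were used for the rest.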

Additional observations from a re-analysis of the deposited data

How the results depend on the processing

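The 15 alternatives were pseudocounts of 0.1 and 1, no expression filter, a minimum of 2 FPKM, median-of-ratios scaling, TPM, no intensity trend, the replicate block, voom on recovered reads and each library left out. CD44 was called higher and AMBP lower in all 15, and the partner genes called lower numbered 2 with voom. The 1205 genes higher and 686 lower became 640 and 337 with no filter, 2615 and 408 with TPM and 1846 and 1153 with voom. Genes higher numbered 779 with median-of-ratios scaling and 642 without the trend. With 1 library left out, genes higher ran from 230 to 1109 and genes lower from 233 to 686. The 18 pathway genes higher became 10 with no filter and ran from 4 to 19 with 1 library left out, each of the 2 smallest counts (4 and 5) being without fatty acid replicate 1 or 2. The 1 pathway gene lower became 2 with median-of-ratios scaling, 2 with the replicate block and 4 with voom, and ran from 1 to 2 with 1 library left out. With no filter 28422 genes were tested in place of 14661, and each fit with 1 library left out had fewer samples. The cause of the changes in these counts was not tested. The labels give same-numbered samples a shared number and do not say whether they were paired. Their deviations from the group means correlated at 0.012, 0.084 and 0.022, and those of the other pairs at -0.094 to 0.073. With 3 samples per group these values cannot decide whether the samples were paired. The replicate block gave 817 genes higher and 657 lower and changed no call of a named partner. Depth limits HAS2, with 4 reads in controls and 1 with fatty acid, and ITIH5, with 10 and 43, while ITIH3 was left out by the minimum of 0.5 FPKM.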
